A study of Mus musculus with 16 samples.

Results

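The collagen genes of the vomeronasal organ (VNO) were taken as every gene listed in both the count and the RPKM tables whose symbol is *Col*, a number, the letter a and a number. 44 of 24340 genes met this rule. They were grouped by the kind of fibre or network that their chains build, with 6 genes in a cartilage class (*Col2a1*, *Col9a1*, *Col9a2*, *Col9a3*, *Col11a1* and *Col11a2*), 3 in a bone and fibrous class (*Col1a1*, *Col1a2* and *Col3a1*), 6 in a basement membrane class (*Col4a1* to *Col4a6*) and 29 in other families. RNA had been sequenced in 16 libraries from mice of the Hsd:ICR background. The 4 High Runner (HR) lines, lines 3, 6, 7 and 8, had been bred for high voluntary wheel running, and the 4 Control lines, lines 1, 2, 4 and 5, had been kept without this selection. Each line gave 1 male library and 1 female library, and each library was a pool of the VNOs of 3 mice, 12 weeks old, from generation 88. A pool gives no value for a single mouse, and how much bone or connective tissue was taken with each VNO is not recorded, so a line and its dissection cannot be told apart.

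Collagens are the structural proteins of the extracellular matrix, and each molecule is a triple helix of alpha chains from 1 or more genes. Type I and type III chains form the thick fibrils of bone and connective tissue, type II chains with types IX and XI form the fibrils of cartilage, and type IV chains form the sheets of basement membranes under epithelia and around vessels. The VNO is a tube of sensory epithelium, vessels and glands inside a stiff capsule, so that a dissected VNO holds these tissues beside the sensory neurons.

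Reads on genes per library ranged from 15998552 to 70875276, with a median of 37366329. Collagen genes took between 0.167% and 0.567% of these reads. The share was highest in the male library of HR line 3 and in both libraries of Control line 4, and lowest in the female library of HR line 8. Levels of different genes are compared here in RPKM, which is reads scaled to the length of the transcript and to the depth of the library, and differences between libraries were tested on counts. The spread between samples, and not the number of reads, limits the precision of most values below.

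The bone and fibrous chains made up most of the collagen signal, and the chain that defines cartilage was near the floor. By median RPKM over the 16 libraries, *Col1a2* (120.7) and *Col1a1* (87.2), the chains of type I collagen, were the highest, followed by *Col3a1* (50.8), the chain of type III, and *Col6a3* (34.4), a chain of the beaded microfibrils. The 3 bone and fibrous chains held between 48.2% and 74.3% of the summed RPKM of all collagen genes, with a median of 59.9%. The 6 basement membrane chains held 3.35% to 8.85%, and the 6 chains of the cartilage class held 1.58% to 2.88%. *Col2a1*, the chain of type II collagen, had a median of 0.288 RPKM and between 24 and 155 counts per library. The ratio of *Col1a1* to *Col2a1* RPKM was 104.8 at its lowest and 1154 at its highest.

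**Figure D1:**
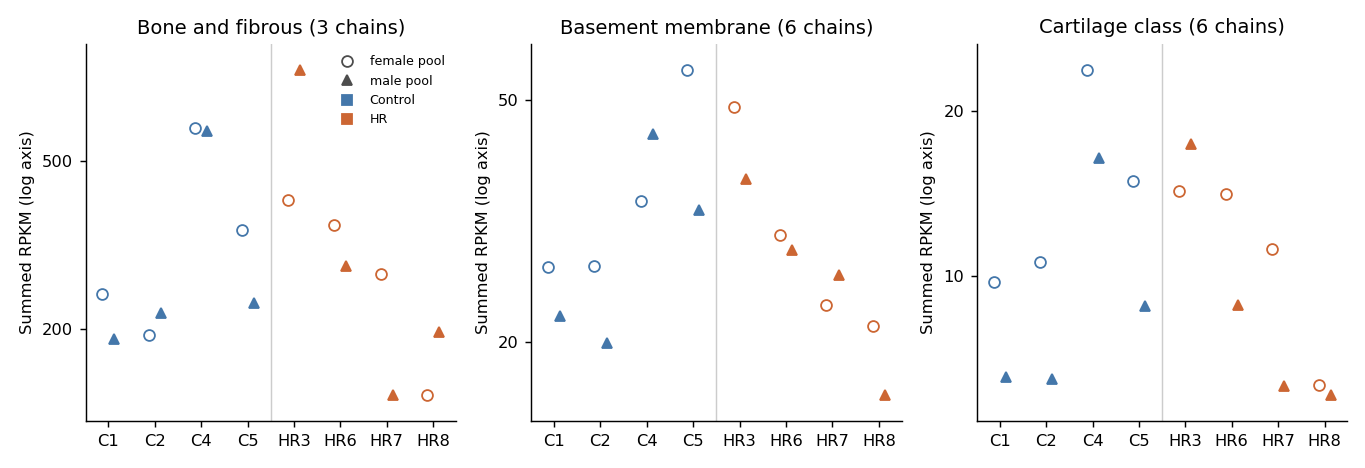
Summed RPKM of the 3 collagen classes in each library, by line, on log axes (open circles, female pools; triangles, male pools; blue, Control lines; orange, HR lines; each point is 1 library). The bone and fibrous sum spans 140.1 to 821.1 RPKM, the basement membrane sum 16.4 to 56.1 and the cartilage sum 6.09 to 23.7, and Control line 4 and HR line 3 are high in each panel.

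The tissue was checked against marker genes. All 10 bone markers were listed, with a summed level from 174 to 962 counts scaled to library size (CPM) over the libraries, led by *Spp1* (osteopontin) and *Ibsp* (bone sialoprotein). Such a sum follows its highest genes, and how much of it comes from bone was not tested. The 7 fibroblast markers summed to 412 to 1021 CPM and the 6 endothelial markers to 35.3 to 119 CPM. Of the 10 cartilage markers 8 were listed, summing to 16.3 to 52.4 CPM, and by their medians most of that was *Sox9*, *Chad* and *Comp*, which tissues other than cartilage also express. *Acan*, the main proteoglycan of cartilage, had a median of 1.34 CPM, and *Matn3* and *Ucma* were at 0 in some libraries. No marker sets the capsule apart from other bone, so the genes are described here by their rule, as collagen genes of the VNO.

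The cartilage class was uneven in itself. *Col9a2* and *Col9a3*, chains of the type IX collagen that coats cartilage fibrils, had medians of 2.28 and 1.16 RPKM, and the third chain of that trimer, *Col9a1*, had 0.0709 RPKM. *Col11a1* and *Col11a2*, chains of type XI collagen, had 3.49 and 2.50 RPKM. All 5 of these other medians except that of *Col9a1* lay above the 0.288 RPKM of *Col2a1*. In the female libraries *Col2a1* measured 0.225, 0.435, 0.753 and 0.332 RPKM in Control lines 1, 2, 4 and 5 and 0.176, 0.672, 0.284 and 0.338 RPKM in HR lines 3, 6, 7 and 8. In the male libraries it measured 0.159, 0.293, 0.183 and 0.308 RPKM in the Control lines and 0.275, 0.499, 0.136 and 0.233 RPKM in the HR lines, in the same order. HR line 6 was high in both sexes, Control line 4 was high in females and low in males, and the linetypes overlapped.

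Start sites of 4 collagen genes are shown because their levels make a contrast in the results that follow. *Col3a1* and *Col11a1* differed among lines, *Col6a3* was nearly level over all libraries, and *Col4a4* shares a short stretch between start sites with *Col4a3*, which moved with it. The first 3 are the 250 bases before the start site on the strand of the gene, read from RefSeq on GRCm38.p6, at chr1:45311288-45311537 on the plus strand for *Col3a1*, chr3:114030290-114030539 on the plus strand for *Col11a1* and chr1:90843972-90844221 on the minus strand for *Col6a3*. The fourth is the whole stretch of 71 bases between the annotated starts of *Col4a4* and *Col4a3*, at chr1:82586850-82586920, on the minus strand, the strand of *Col4a4*. Capitals mark 3 motifs searched on both strands, none of which overlap here. The first is TATAAA, the core of the TATA box. The second is GGGCGG, the core of the GC box. The third is CCAAT, the core of the CCAAT box, which reads ATTGG where it lies on the other strand.
Col3a1: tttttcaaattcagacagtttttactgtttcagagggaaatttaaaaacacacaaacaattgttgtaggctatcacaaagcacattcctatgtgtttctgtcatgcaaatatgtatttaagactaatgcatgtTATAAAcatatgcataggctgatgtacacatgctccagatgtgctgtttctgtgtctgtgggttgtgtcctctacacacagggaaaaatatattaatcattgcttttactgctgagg
Col11a1: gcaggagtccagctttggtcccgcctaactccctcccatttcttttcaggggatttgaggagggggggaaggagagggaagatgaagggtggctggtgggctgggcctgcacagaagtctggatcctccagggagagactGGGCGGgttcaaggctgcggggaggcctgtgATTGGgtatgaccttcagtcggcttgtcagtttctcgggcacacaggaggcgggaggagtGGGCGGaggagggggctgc
Col6a3: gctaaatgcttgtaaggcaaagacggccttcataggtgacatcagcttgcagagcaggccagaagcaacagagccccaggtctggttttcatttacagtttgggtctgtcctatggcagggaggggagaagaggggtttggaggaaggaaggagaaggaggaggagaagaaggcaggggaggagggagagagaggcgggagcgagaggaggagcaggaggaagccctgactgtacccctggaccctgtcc
Col4a4: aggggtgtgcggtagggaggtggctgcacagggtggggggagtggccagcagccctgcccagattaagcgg
The *Col3a1* stretch held TATAAA 117 bases before the start and had a GC content of 35.2%. The *Col11a1* stretch, with 62.4% GC, held GGGCGG 110 and 19 bases before the start and CCAAT on the other strand 79 bases before it. The *Col6a3* stretch held none of the 3 motifs. Among 38 promoter windows of the 35 collagen genes in the RefSeq table, 57.9% held GGGCGG on either strand, 34.2% held CCAAT and 13.2% held TATAAA. Over all 32851 windows of the table the shares were 32.7%, 33.8% and 12.4%. The median GC content was 59.0% in the collagen windows and 52.4% over all windows. The part of GC content in the GGGCGG shares was not tested. The windows run to 50 bases after a start, but in both sets only the 250 bases before it were searched. A match of letters is a description of the window and not a binding site.

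Most collagen genes differed among the 8 lines. The question was whether lines differed by more than the male and female library of 1 line did, and it was tested with edgeR's quasi-likelihood *F* test of the line terms with sex in the model. Of the 43 collagen genes with enough reads, 32 had an adjusted *p* under 0.05, which is 74.4%, against 25.6% of all 17181 genes tested. The SD of the 8 line means had a median of 0.62 on the log2 CPM scale for collagen genes and 0.20 for all genes, and the residual SD within lines 0.34 and 0.16. The distance between the highest and the lowest line had a median of 1.60 log2 units for collagen genes and 0.58 for all genes. The male and the female libraries may have been sequenced in separate runs, since each table holds 1 sex, and the line test compares lines over both.

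By family, the test called 3 of 3 bone and fibrous genes, 6 of 6 basement membrane genes and 5 of 5 genes of the minor fibrillar chains (types V, XXIV and XXVII), which are built into larger fibrils. It called 4 of 6 genes of the cartilage class, 3 of 5 microfibrillar genes (type VI) and 3 of 6 genes of the chains that sit on the surface of fibrils (types XII, XIV, XVI, XIX, XX and XXII). It called 3 of 4 anchoring and network genes (types VII, VIII and X), 1 of 2 genes of types XV and XVIII, 3 of 4 genes of collagens that span the cell membrane and 1 of the remaining 2, *Col28a1*. The 11 genes not called were *Col2a1*, *Col6a3*, *Col6a5*, *Col9a2*, *Col10a1*, *Col13a1*, *Col15a1*, *Col19a1*, *Col20a1*, *Col22a1* and *Col26a1*. *Col6a4* was not tested because it had only 1 to 17 counts per library. Among the microfibrillar genes called, *Col6a6* had 1344 counts in the male library of Control line 2 and 2 to 20 in each of the others. Its call, which is also in the total above, rests on that library.

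The high and the low lines were largely shared between families. Control line 4 had the highest mean for 16 of the 43 genes, HR line 3 for 13, Control line 5 for 9, HR line 6 for 4 and Control line 2 for 1. HR line 8 had the lowest mean for 28 of the 43 genes (65.1%), against 16.1% of all genes tested. Set against the mean of the 8 lines, the median collagen gene lay 0.66 log2 CPM higher in Control line 4, 0.66 higher in HR line 3, 0.39 higher in Control line 5 and 0.05 higher in HR line 6. The median fell by 0.39 in Control line 1, by 0.37 in Control line 2, by 0.51 in HR line 7 and by 0.63 in HR line 8 on the same scale. In HR line 7 all 43 genes were below the mean of the lines. Over all genes tested, the median deviation of a line lay between -0.01 and 0.01. High lines and low lines occurred in both linetypes.

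**Figure D2:**
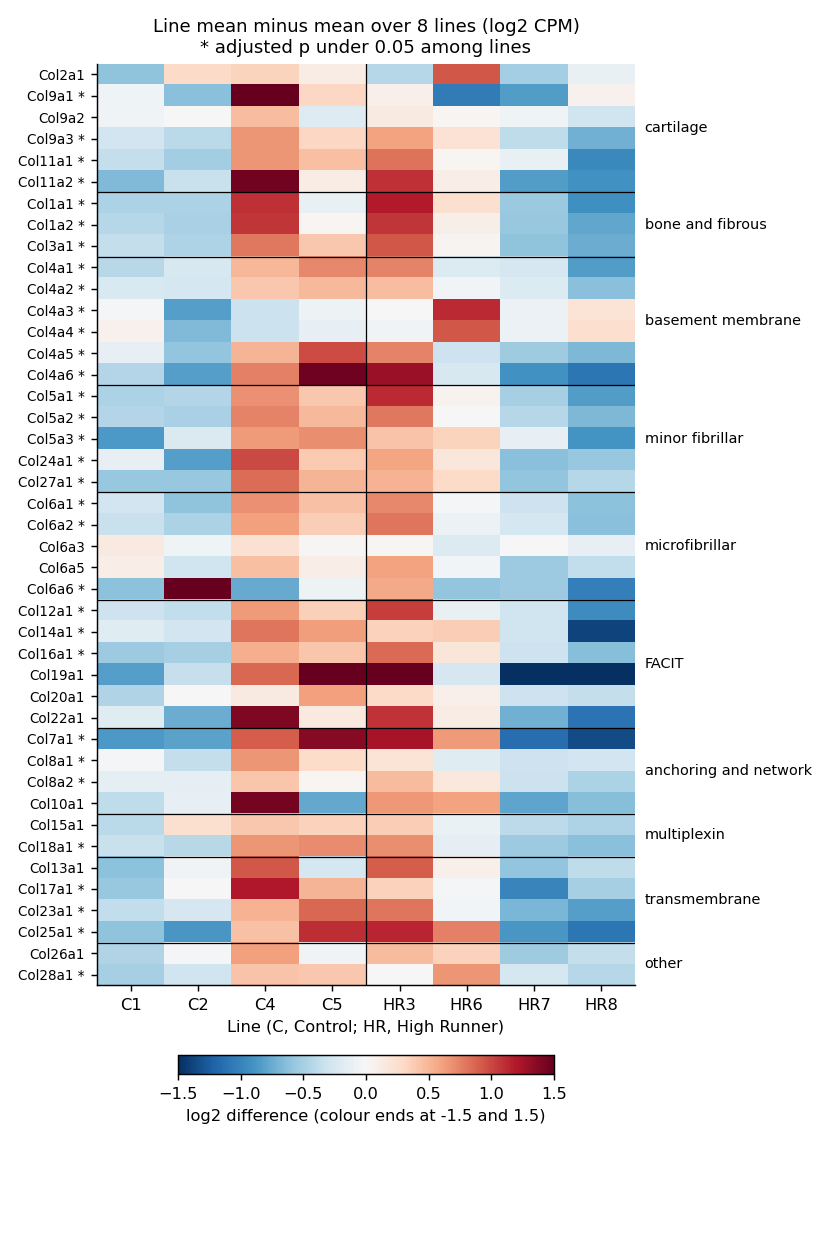
Line mean minus the mean of the 8 lines, in log2 CPM, for the 43 collagen genes tested, by family (red, above; blue, below; colours end at -1.5 and 1.5; an asterisk marks an adjusted *p* under 0.05 among lines). Control line 4 and HR line 3 are red and HR lines 7 and 8 blue in most rows, while *Col4a3* and *Col4a4* are highest in HR line 6.

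The type I and type III chains were high in Control line 4 and HR line 3 in both sexes. *Col1a1* (chromosome 11, 94936224 to 94953042) measured 76.5, 63.4, 216 and 102 RPKM in females of Control lines 1, 2, 4 and 5 and 137, 128, 94.9 and 35.4 RPKM in females of HR lines 3, 6, 7 and 8. In males it measured 65.8, 79.4, 205 and 68.5 RPKM in the Control lines and 317, 105, 47.1 and 76.6 RPKM in the HR lines. Control line 4 was high in both sexes and HR line 3 most of all in males, with the other lines between 35.4 and 128 RPKM. HR line 8 was the lowest of the female libraries and not of the male ones, where Control lines 1 and 5 and HR line 7 lay below it, and over the 8 lines male and female libraries had *r* = 0.606 on the log2 CPM scale. *Col1a1* line means spanned 4.32-fold with an adjusted *p* of 0.0267, and those of *Col1a2* spanned 3.61-fold with an adjusted *p* of 0.016 (edgeR). These calls rest on those lines, because with Control line 4 and HR line 3 left out together the adjusted *p* was 0.409 for *Col1a1* and 0.301 for *Col1a2*. Without the female library of Control line 4 that of *Col1a1* was 0.0536, and without the male library of Control line 2 it was 0.0553.

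*Col3a1* (chromosome 1, 45311538 to 45349706) measured 50.0, 37.6, 71.1 and 67.5 RPKM in females of Control lines 1, 2, 4 and 5 and 67.9, 52.7, 39.0 and 36.2 RPKM in females of HR lines 3, 6, 7 and 8. Male libraries held 31.6, 35.1, 109 and 58.1 RPKM in the Control lines and 123, 51.6, 28.9 and 25.4 RPKM in the HR lines. Control lines 4 and 5 and HR line 3 were high in both sexes and HR lines 7 and 8 low. The line means spanned 3.18-fold, with an adjusted *p* of 0.0102, and the gene was called in each of the 8 fits that left out 1 line.

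The smallest *p* among lines belonged to chains of lower level. *Col11a1* (chromosome 3, 114030540 to 114220718) measured 3.34, 3.03, 5.67 and 5.79 RPKM in females of Control lines 1, 2, 4 and 5 and 5.89, 3.90, 3.95 and 2.07 RPKM in females of HR lines 3, 6, 7 and 8. In males it measured 2.11, 1.90, 5.21 and 3.63 RPKM in the Control lines and 5.47, 3.23, 2.55 and 1.51 RPKM in the HR lines. The order of the lines was close to the same in both sexes, with *r* = 0.944 between male and female libraries over the lines. Its *F* was 32.1 and its adjusted *p* 0.000317. *Col12a1*, a chain found on the surface of fibrils in tendon and other dense tissue, spanned 3.93-fold (adjusted *p* = 0.00045), and *Col5a2*, a chain that sets fibril width, spanned 2.77-fold (adjusted *p* = 0.00229). *Col5a2* has its end 24614 bases from the end of *Col3a1* on the other strand, and their line means had *r* = 0.990 over the 8 lines, given as a description.

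**Figure D3:**
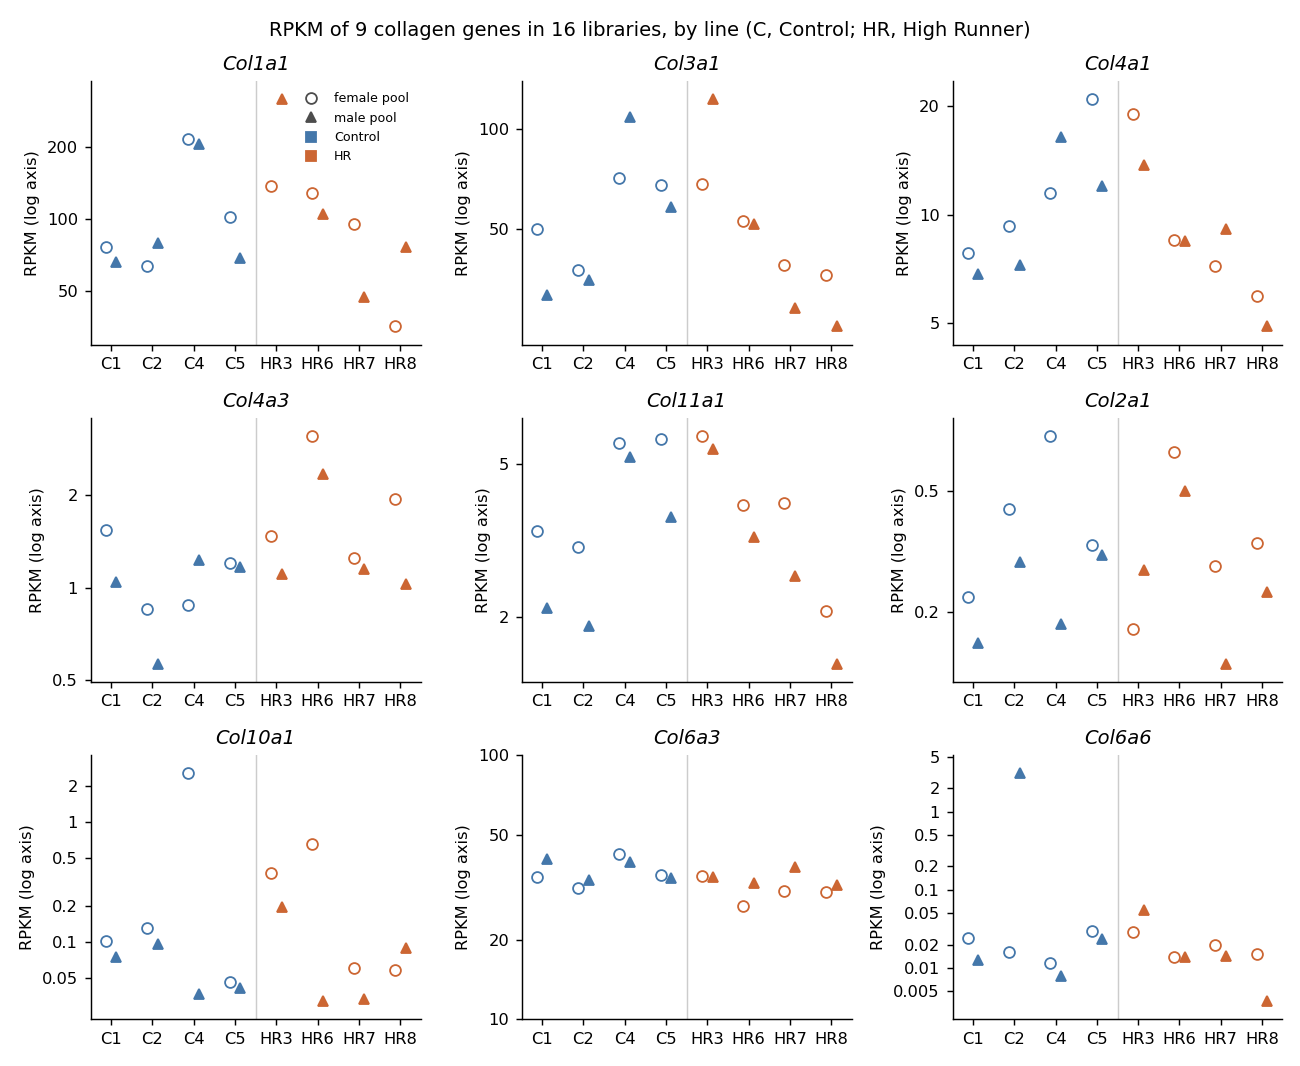
RPKM of 9 collagen genes in the 16 libraries, by line, on log axes that differ between panels (open circles, female pools; triangles, male pools; blue, Control lines; orange, HR lines; each point is 1 library). *Col1a1*, *Col3a1* and *Col11a1* share their high lines, *Col4a3* is highest in HR line 6, *Col10a1* and *Col6a6* are each high in 1 library, and *Col6a3* stays between 26.9 and 42.2 RPKM.

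*Col6a3* (chromosome 1, 90765923 to 90843971) stood apart by how little it varied. In females it measured 34.7, 31.4, 42.2 and 35.1 RPKM in Control lines 1, 2, 4 and 5 and 34.7, 26.9, 30.6 and 30.2 RPKM in HR lines 3, 6, 7 and 8. The male values were 40.4, 33.8, 39.4 and 34.2 RPKM in the Control lines and 34.6, 32.9, 37.6 and 32.2 RPKM in the HR lines. Its line means spanned 1.35-fold, with an SD of 0.14 on the log2 scale, the lowest of the 43 genes, and an adjusted *p* of 0.129. *Col6a1* and *Col6a2*, which encode the other chains of the classic type VI heterotrimer, spanned 2.52-fold (adjusted *p* = 0.00741) and 2.70-fold (adjusted *p* = 0.0077). The RPKM of *Col6a3* was 1.59 to 5.17 times that of *Col6a1* over the libraries, whereas the ratio of *Col6a1* to *Col6a2* stayed between 1.13 and 1.52.

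The basement membrane chains split into pairs. In the genome the 6 type IV genes lie head to head in pairs, with starts 21 bases apart for *Col4a1* and *Col4a2* on chromosome 8, 72 apart for *Col4a4* and *Col4a3* on chromosome 1, and 1309 apart for *Col4a6* and *Col4a5* on the X chromosome. Over the 8 line means the genes of a pair had *r* = 0.986, 0.992 and 0.989 in this order. *Col4a1* and *Col4a2*, the common chains, had medians of 8.81 and 14.2 RPKM. *Col4a1* measured 7.84, 9.32, 11.5 and 20.9 RPKM in females of Control lines 1, 2, 4 and 5, 18.96, 8.50, 7.19 and 5.95 RPKM in females of HR lines 3, 6, 7 and 8, 6.87, 7.28, 16.4 and 12.03 RPKM in males of the Control lines and 13.7, 8.44, 9.12 and 4.91 RPKM in males of the HR lines. Control lines 4 and 5 and HR line 3 were above all other lines in both sexes, and the adjusted *p* among lines was 0.00745. *Col4a5* and *Col4a6*, the chains of the X chromosome, were highest in Control line 5 by line mean, spanning 3.14-fold (adjusted *p* = 0.0183) and 5.83-fold (adjusted *p* = 0.0285). That rests on females. In males Control line 4 (20.3 and 11.9 CPM) and HR line 3 (16.2 and 9.98 CPM) lay above Control line 5 (14.1 and 8.55 CPM). *Col4a6* was called in 4 of the 8 fits that left out 1 line, and *Col4a5* in 8.

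*Col4a3* and *Col4a4*, chains of specialised basement membranes, had another order. *Col4a3* measured 1.54, 0.850, 0.879 and 1.20 RPKM in females of Control lines 1, 2, 4 and 5 and 1.48, 3.12, 1.25 and 1.94 RPKM in females of HR lines 3, 6, 7 and 8. In males it measured 1.04, 0.565, 1.23 and 1.17 RPKM in the Control lines and 1.11, 2.34, 1.15 and 1.03 RPKM in the HR lines. HR line 6 was the highest and Control line 2 the lowest in both sexes, and the other lines overlapped. The line means spanned 3.83-fold for *Col4a3* (adjusted *p* = 0.00957) and 3.03-fold for *Col4a4* (adjusted *p* = 0.0346), and without HR line 6 the adjusted *p* was 0.168 and 0.289. Their line means had *r* = 0.06 and -0.03 with those of *Col1a1*, whereas *Col4a1* had 0.79.

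Correlations over the 8 lines were tested for 10 pairs, on the mean log2 CPM of the male and female library of a line, with exact two-sided permutation tests and Benjamini-Hochberg adjustment over the 10 pairs. *Col1a1* rose and fell with *Col1a2* (*r* = 0.993, rho = 0.952, adjusted permutation *p* = 0.000992 and 0.0057) and with *Col3a1* (*r* = 0.946, rho = 0.952, adjusted permutation *p* = 0.00265 and 0.0057). Without Control line 4 and HR line 3, the 2 lines farthest from the median of *Col1a1*, *r* was 0.964 and 0.828. Within males *r* was 0.993 and 0.893, and within females 0.988 and 0.817. *Col4a1* with *Col4a2* had *r* = 0.986 and rho = 0.905 (adjusted permutation *p* = 0.00112 and 0.0114), and *r* = 0.978 without Control line 5 and HR line 3. *Col1a1* with *Col4a1* had *r* = 0.794 (adjusted permutation *p* = 0.0548) and rho = 0.905 (0.0114), and *r* = 0.615 without Control line 4 and HR line 3. Within the sexes *r* was 0.625 in males and 0.648 in females, with exact permutation *p* of 0.102 and 0.0833.

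*Col2a1* did not move detectably with any chain it was paired with. Its *r* was 0.208 with *Col1a1*, 0.005 with *Col9a1*, 0.078 with *Col11a1* and 0.068 with *Col4a1*, with exact permutation *p* of 0.617, 0.991, 0.855 and 0.870, and adjusted values of 0.984 and 0.991. The rho values were 0.452, 0.024, 0.190 and 0.357, with adjusted permutation *p* of 0.446 to 0.977. Without the 2 farthest lines *r* was 0.697 with *Col1a1*, 0.537 with *Col9a1*, -0.044 with *Col11a1* and 0.094 with *Col4a1*, so that the low values with *Col1a1* and *Col9a1* rest on those lines. With *Omp*, the marker of mature sensory neurons, it had *r* = -0.059 (exact permutation *p* = 0.886), rho = -0.190 and *r* = 0.101 without the 2 farthest lines. *Col1a1* with *Omp* had *r* = -0.719 and rho = -0.762, with exact permutation *p* of 0.0472 and 0.0368 and adjusted values of 0.0944 and 0.0735. It had *r* = -0.776 in males, -0.594 in females and -0.782 without Control line 4 and HR line 3. Reads are shares of a library, so a larger part for 1 tissue lowers the part of another. In these bulk samples fewer cells of a type and less RNA per cell cannot be told apart.

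**Figure D4:**
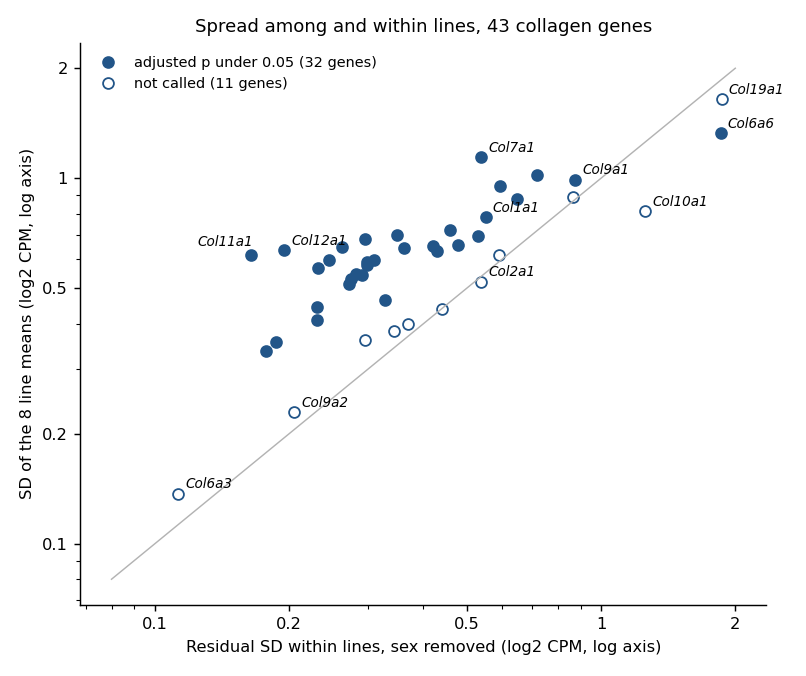
SD of the 8 line means against the residual SD within lines after sex was removed, in log2 CPM on log axes, for the 43 collagen genes (filled, adjusted *p* under 0.05 among lines; open, not called; the line marks equal SD). *Col11a1* and *Col12a1* have line SDs far above their residual SDs, *Col6a3* has the lowest line SD, and *Col10a1* and *Col6a6* lie below the line of equal SD.

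Marker genes of several tissues also varied among lines, and their called counts are to be read against the 25.6% of all genes called. The bone markers summed to 659 and 599 CPM in the female and male library of Control line 4 and to 440 and 962 CPM in those of HR line 3, and 3 of the 10 were called among lines, a share near that of all genes. HR line 7, a low line for collagen, had 494 CPM in females, above the female library of HR line 3, and 174 CPM in males, the lowest of the 16. The remaining lines had 184 to 396 CPM. The fibroblast sum was highest in HR line 3 (887 and 1021 CPM), Control line 5 (1008 and 760 CPM) and Control line 4 (689 and 989 CPM), and 7 of 7 of those markers were called. The endothelial sum was highest in the female library of Control line 5 (119 CPM), and 6 of 6 were called. Of the cartilage markers 5 of the 7 tested were called. Of the markers of other tissue, skeletal muscle summed to 2.55 to 5.27 CPM, glia and ensheathing cells to 71.0 to 149 CPM, and marrow and blood to 0.630 to 3.79 CPM. Of the genes tested, 1 of 3, 3 of 4 and 0 of 1 were called. *Hba-a1*, a haemoglobin gene, and the neuronal *Trpc2* were listed at 0 counts in each library, but *Hba-a1* had 53.5 to 293 RPKM and *Trpc2* 259 to 417 RPKM, so these counts of 0 do not show absence. The 5 neuronal markers summed to 2290 to 4555 CPM, and 1 of the 4 tested was called, again near the share of all genes. The part of these tissues in the differences among lines was not tested.

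The enzymes that make collagen also differed among lines. Of 43 other genes of collagen metabolism, 28 were called among lines, beside the 25.6% of all genes. These were 19 of 30 genes of biosynthesis, 5 of 6 proteases and 4 of 7 receptors. *Serpinh1*, the collagen chaperone, had an adjusted *p* of 0.0077, *Bmp1*, a protease that trims procollagen, 0.00799, and *Lox*, which cross-links fibrils, 0.0122 (edgeR). *P4ha1*, a subunit of the prolyl hydroxylase, and *Ppib*, a prolyl isomerase of the endoplasmic reticulum, had 0.154 and 0.677. *Ctsk*, the collagen-cleaving protease of osteoclasts, had an adjusted *p* of 0.0193, and *Mmp13*, a collagenase, had 0.00448. Over the line means *r* with *Col1a1* was 0.992 for *Ctsk*, the highest of the 43 genes. The lowest was -0.523, for *Ppib*, and the called genes *Itga1* (-0.264) and *Plod1* (-0.246) were also below 0. Between the linetypes edgeR called 0 of the 42 tested, against 0.0242% of all genes. *Plod3* and *Colgalt2* were the 2 below 0.05 before adjustment, a share near the 3.3% of all genes.

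HR and Control lines did not differ detectably in any collagen gene. The study bred 4 lines of each kind, and the comparison asks whether selection for running went with a change shared by the HR lines. In this model the male and female pool of a line count as separate libraries. With sex in the model, 0 of 42 collagen genes had an adjusted *p* under 0.05 in edgeR, against 0.0242% of all genes tested, and 4 had an unadjusted *p* under 0.05, against 3.3% of all genes. DESeq2 also called 0, where it called 30 of all 16507 genes tested, with 5 collagen genes at an unadjusted *p* under 0.05. DESeq2's own share of all genes at that unadjusted level is not given here. The log2 fold change was below 0 for 34 genes and above 0 for 8, with a median of -0.15, and the median over all genes tested was 0.003. The signs of genes that vary together over lines are not independent. For no collagen gene were the 4 HR line means all above or all below the 4 Control line means, which occurred for 0.85% of all genes. For *Col1a1* the difference was 0.10 ± 0.42 (SE), for *Col3a1* -0.12 ± 0.34, for *Col4a1* -0.26 ± 0.29 and for *Col2a1* -0.01 ± 0.33 on the log2 scale.

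By edgeR's quasi-likelihood test, those below 0.05 before adjustment were *Col4a3* (0.66 ± 0.24 log2, unadjusted *p* = 0.0131), *Col4a4* (0.55 ± 0.22, 0.0242), *Col9a1* (-1.43 ± 0.62, 0.0354) and *Col6a3* (-0.16 ± 0.07, 0.0379), and the adjusted *p* of all 4 rounded to 1. *Col4a3* and *Col4a4* had the highest log2 fold changes of the set and *Col9a1* the lowest. The *Col4a3* and *Col4a4* values rest in part on HR line 6, without which they were 0.32 and 0.27. *Col9a1* had 115 counts in the female library of Control line 4 and 2 to 29 in the others. All 6 genes of the cartilage class had negative values, from -1.43 to -0.01, as had all 4 anchoring and network genes, from -0.58 to -0.04, the 4 microfibrillar genes tested, from -0.16 to -0.06, and both genes of types XV and XVIII. None of these passed the adjusted threshold.

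**Figure D5:**
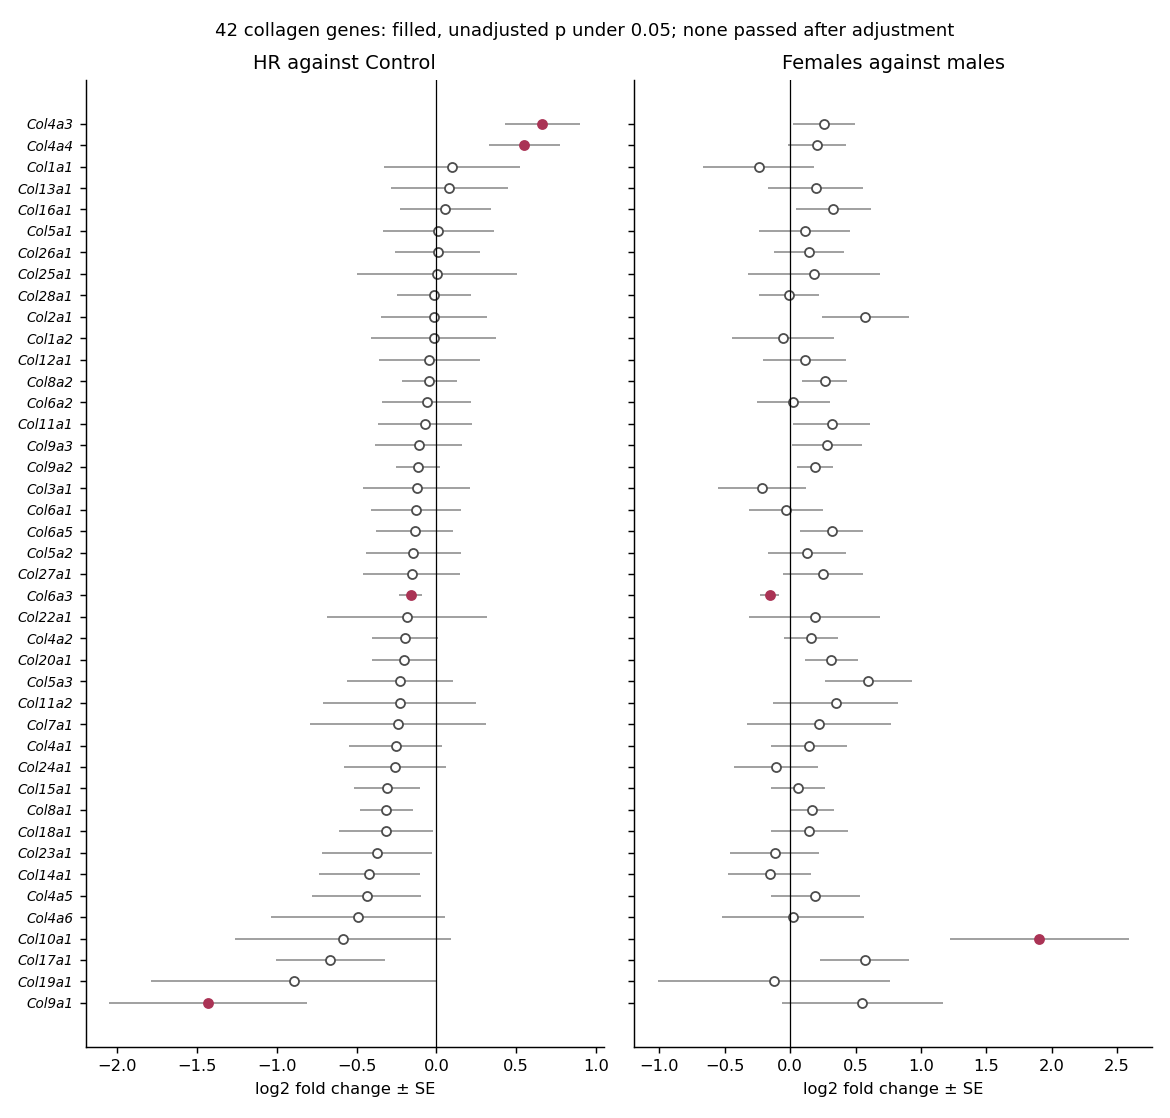
Log2 fold change with its SE for the 42 collagen genes tested, HR against Control (left) and females against males (right), in the order of the left panel (filled, unadjusted *p* under 0.05). Most intervals cross 0; *Col4a3*, *Col4a4*, *Col6a3* and *Col9a1* are filled on the left, and *Col6a3* and *Col10a1* on the right.

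Among lines, the differences were found within each linetype as well. Among the 4 HR lines alone, 30 of 42 collagen genes were called, against 18.3% of all genes tested. Among the 4 Control lines alone, 6 of 42 were called, against 2.69% of all genes, namely *Col8a1*, *Col11a1*, *Col11a2*, *Col13a1*, *Col24a1* and *Col27a1*, and 32 of 42 had an unadjusted *p* under 0.05. The genes called in both numbered 3. Whether the HR lines differ more from each other than the Control lines do was not tested.

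Females and males did not differ in any collagen gene at the adjusted threshold. With linetype in the model, 0 of 42 had an adjusted *p* under 0.05 in edgeR, against 0.188% of all genes tested, and 2 had an unadjusted *p* under 0.05, against 8.08% of all genes. DESeq2 called 0, with the same number at an unadjusted *p* under 0.05. The log2 fold change was above 0 in 32 of 42 genes, with a median of 0.18. With line as a replicate block, 0 of 43 were called, against 0.506% of all genes, and 11 had an unadjusted *p* under 0.05, against 16.4% of all genes. In that fit *Col11a1* had the smallest adjusted *p*, 0.0714, at 0.36 ± 0.08 log2, and it was higher in females in 8 of 8 lines, as was *Col8a2*, a chain of endothelial and corneal matrix. *Col6a3* was lower in females in 7 of 8 lines, at -0.16 ± 0.06. The sexes may coincide with sequencing runs, and then they cannot be told apart.

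*Col10a1*, the chain of hypertrophic cartilage, had the largest value between the sexes, 1.90 ± 0.69 log2 (unadjusted *p* = 0.0137, adjusted *p* = 0.436, edgeR), and it came mostly from 1 library. In females it measured 0.102, 0.131, 2.53 and 0.0466 RPKM in Control lines 1, 2, 4 and 5 and 0.379, 0.662, 0.0612 and 0.0585 RPKM in HR lines 3, 6, 7 and 8. Male libraries held 0.0754, 0.0970, 0.0370 and 0.0414 RPKM in the Control lines and 0.198, 0.0326, 0.0337 and 0.0896 RPKM in the HR lines. The female library of Control line 4 held 281 counts, and the others 3 to 65. Without Control line 4 the value was 0.75. The same library was the highest of the 16 for *Col2a1*, *Col9a1*, *Col9a2*, *Col9a3* and *Col11a2*, and for 3 of the 8 listed cartilage markers, *Acan* (7.67 CPM), *Matn3* (1.04 CPM) and *Ucma* (1.82 CPM). The sum of all 8 was 43.2 CPM there, below the 46.5 CPM of the female library of Control line 5 and the 52.4 CPM of the male library of HR line 3. The part of cartilage in this library's values was not tested. *Nt5dc1* overlaps *Col10a1* on the other strand, and whether the authors' counting used the strand is not given in the sources used here.

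*Col6a6*, a chain related to *Col6a3*, was at the floor in all libraries but 1. It had 1344 counts, 3.11 RPKM, in the male library of Control line 2 and 2 to 20 counts in each of the others, including 2 in the female library of the same line. The gene passed the filter on low counts in the line test, where it was called with an adjusted *p* of 0.0151, and not in the tests of linetype and sex. Without this library the adjusted *p* among lines was 0.177. The neighbouring *Col6a5* and *Col6a4* were not raised there, at 0.32 and 0.02 RPKM.

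Sex differences did not differ detectably between the linetypes. For the interaction of sex and linetype, edgeR called 0 of 42 collagen genes, against 0.0% of the 16757 genes tested, and 0 had an unadjusted *p* under 0.05, against 0.46% of all genes. DESeq2 also called 0, with 0 at an unadjusted *p* under 0.05. *Col17a1*, a collagen of the hemidesmosomes that anchor epithelia, had the smallest edgeR *p*, 0.159 before adjustment, at -0.96 ± 0.65 on the log2 scale. With line as a replicate block, 3 of 43 genes, *Col9a3*, *Col14a1* and *Col17a1*, had an unadjusted *p* under 0.05, against 2.1% of all genes, and 0 had an adjusted *p* under 0.05, against 0.0%.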

How the data were processed

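The members and gene lists were chosen with earlier results of these data known. RNA from pooled VNOs (RNA integrity number at least 8.3) was depleted of ribosomal RNA, made into directional libraries and read as 75 nucleotides from 1 end. Alignment by the authors used STAR 2.6.1d and GRCm38, accepting 0 mismatches and unique locations only, so reads across a base that differs from the reference are lost. The deposited count tables hold reads per gene and are not normalized. The deposited RPKM tables hold the authors' Cufflinks values, reads scaled to transcript length and library depth, made within each table of 8 libraries, and female values lay 0.058 log2 higher relative to CPM over 9519 genes. The count files carry the summary entries of STAR's gene counts (unmapped, multimapping, no feature, ambiguous). The annotation and the use of strand in counting are not given in the sources used here. In the male libraries 16.7% to 18.5% of listed reads had no feature. Entries that name no gene (4) and repeated names (4) were dropped, so 24407 genes had counts. Counts and RPKM of a gene kept their ratio within 1.32-fold over libraries for the 30 collagen genes with at least 100 counts in each library.

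Counts were tested over all genes with edgeR 4.0.16 in R 4.3.3 (TMM, filterByExpr at a minimum count of 10, quasi-likelihood test, Benjamini-Hochberg adjustment over all genes tested, threshold 0.05), and collagen genes were then read out. Log2 CPM used a prior count of 2. Models were sex + linetype, its interaction, and sex + line. The study's Cuffdiff test needs alignments and was not used here. Alternatives were DESeq2 1.42.0, its size factors in edgeR, no filter, limma-voom (limma 3.58.1) with line as a random effect, line sums, each sex, each linetype, each line left out, and line as a block. Tables and correlations used Python 3.11.15, numpy 2.4.6, pandas 2.3.3 and scipy 1.17.1, and plots matplotlib 3.10.9. Genes named with values are the chains of the 3 classes, *Col10a1*, those called in any test, the 3 smallest *p* per test and the extremes of level and of fold change between linetypes. *Col6a4*, *Col6a5* and *Col8a2* beside these, and *Col19a1* and the other genes not called, were named after their values were seen. Positions come from GENCODE release 21.

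On simulated counts of 16507 genes, the edgeR line test recovered 92% of genes whose line effects had an SD of 2-fold. It recovered 99% at an SD of 4-fold, with 12 unchanged genes called. Fold is here the SD of the line effects, which is smaller than the span from the lowest to the highest line given above. The changed genes were drawn at random from all genes that passed the filter. Collagen genes had a median residual SD of 0.34 log2 CPM against 0.16 for all genes. Their median line SD, 0.62 log2 CPM, was below the 2-fold setting. These rates therefore do not give the recovery for collagen genes. The line number pairs male and female pools of the same line. As deviations from their group means over all genes, the pools of a line correlated at 0.321 to 0.708. Over the collagen genes tested the range was lower, from -0.321 in Control line 4 to 0.536 in HR line 3. HR line 7 was also below 0 there, at -0.213. No pair of libraries of 1 group was a copy, with chi-square per degree of freedom of at least 31.1. Pools of a line are its only replicates, and in the line test and the fits with line as a block *p* measure the spread between these pools. The main models of linetype, sex and their interaction have no line term, so each library counts as a separate replicate. There *p* and SE measure the spread between libraries of a group. In limma-voom the correlation within a line was 0.49. Depth is given as counts on genes, and precision is set mainly by having 4 lines a group.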

Additional observations from a re-analysis of the deposited data

Results flagged for a closer look

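In 176 groups of 4 libraries (44 collagen genes in each linetype and sex), the highest or lowest library was compared with the others by Dixon's ratio at its 95% critical value. It exceeded this value in 8 groups, or 4.55%, where chance gives about 1 in 20 groups. In the male library of Control line 4, *Col1a2* had 1443 CPM against 485 to 560 in the other male Control libraries, *Col11a2* 41.4 CPM against 9.84 to 12.6, and *Col22a1* 11.7 CPM against 3.94 to 4.29. In the male library of HR line 6, *Col4a3* had 22.1 CPM against 9.97 to 10.7. In the female library of HR line 3, *Col4a6* had 11.2 CPM against 1.96 to 2.26 and *Col15a1* 76.5 CPM against 41.1 to 42.8. In the female library of HR line 8, *Col22a1* had 1.59 CPM, from 59 counts, against 7.16 to 7.82. In the male library of Control line 2, *Col6a6* had 25.1 CPM against 0.085 to 0.158. Control line 4, HR line 3 and HR line 8 are the lines that were high or low over most collagen genes. The cause of these values was not tested.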

How the results depend on the processing

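The count of collagen genes called among lines was 32 and stayed within 1.5-fold of that except among the Control lines alone. It was 37 in DESeq2, 30 among the HR lines alone and 24 to 31 when each line was left out, the lowest without HR line 8. Among the Control lines alone it was 6, with the same number of libraries as among the HR lines, and the cause was not tested. Of all genes tested, 18.3% were called among the HR lines and 2.69% among the Control lines. On simulated counts the line test called 166 unchanged genes in DESeq2 and 12 in edgeR. For DESeq2 and the fits with lines or libraries left out, the shares over all genes are not given here. After the data were seen, 3 more fits were run, which gave 31 without the female library of Control line 4, 23 without the male library of Control line 2 and 25 without Control line 4 and HR line 3. Of the 32 genes, 18 were called in each of the 8 fits that left out 1 line. No collagen gene was called for linetype, sex or their interaction in any alternative run. With line as a replicate block the counts were 0 for sex and 0 for the interaction, and the block changed no call. With 1 line left out, unadjusted *p* under 0.05 between linetypes in edgeR ranged from 0 genes without HR line 6 to 15 without HR line 3. The shares over all genes in these fits are not given here, so the counts are not read as particular to collagen genes. Fold changes near 0 turned sign between linetypes (log2). *Col1a1*, at 0.10, was -0.19 in females alone, -0.027 in limma-voom and -0.46 to 0.60 with 1 line left out. *Col2a1*, at -0.01, was 0.26 in males alone, 0.28 without Control line 4 and HR line 3 and -0.44 to 0.15 with 1 line left out, and *Col3a1* was -0.60 to 0.17. The interaction of *Col10a1* ran from -2.33 to 0.98, the last without Control line 4. The causes were not tested. Of the 10 correlations, 3 passed the adjusted threshold by *r*, and 3 to 5 passed with 1 line left out, the most without Control line 5. *Col1a1* with *Col4a1* passed by rho (adjusted permutation *p* = 0.0114) and not by *r* (0.0548). Depth limits *Col2a1*, *Col9a1*, *Col10a1*, *Col19a1*, *Col6a4* and *Col6a6*, which had under 30 counts in some libraries.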

Other observations

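Collagen genes of lower level that the classes above leave out shared Control line 5 and HR line 3 as high lines and HR lines 7 and 8 as low lines in the 3 genes that follow. *Col7a1*, the anchoring fibril chain under stratified epithelia, spanned 6.54-fold over line means (adjusted *p* = 0.00593, edgeR) and was highest in Control line 5. In females it measured 1.39, 1.22, 2.30 and 3.65 RPKM in Control lines 1, 2, 4 and 5 and 2.32, 2.54, 0.796 and 0.651 RPKM in HR lines 3, 6, 7 and 8. In males it measured 0.357, 0.453, 2.56 and 2.38 RPKM in the Control lines and 3.27, 1.63, 0.445 and 0.373 RPKM in the HR lines. *Col25a1*, a membrane collagen of neurons and muscle, was highest in HR line 3 (4.70-fold, adjusted *p* = 0.0192) and had *r* = -0.943 with *Omp* over the 8 line means, given as a description of shares of the same libraries. *Col19a1* spanned 22.6-fold over line means without being called (adjusted *p* = 0.198), with 3 to 378 counts per library, and its male and female libraries differed by up to 4.16 log2 within a line.

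*Col28a1*, a chain of glia in peripheral nerve, was highest in HR line 6 by line mean (2.24-fold, adjusted *p* = 0.0117, edgeR). In males Control line 4 (17.6 CPM) lay above HR line 6 (16.2 CPM). The summed level of 4 markers of glia and ensheathing cells ran from 71.0 to 149 CPM, and 3 of the 4 were called among lines, beside 25.6% of all genes. In the female and male libraries that sum was 141 and 149 CPM in Control line 5 and 106 and 149 CPM in Control line 4. It was 141 and 123 CPM in HR line 6, so it did not single out that line.

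*Xist*, the transcript of the inactive X chromosome, had 273 counts in the male library of Control line 1 against 10 to 29 in the other male libraries, and at least 25762 in each female library.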
